A study of Arabidopsis thaliana with 4 samples.

Results

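The B-type cyclin genes of Arabidopsis thaliana were followed in root tip RNA-seq of wild type and of a line that overexpresses SCL28. The family was taken as CYCB1;1 to CYCB1;4, CYCB2;1 to CYCB2;4 and CYCB3;1, which are 9 genes among 26822 usable lines of the deposited tables. One of them, CYCB1;2, carried its locus tag there. The other 8 lines had no locus tag and held only the part of the symbol before the semicolon, and they were matched through that symbol and their place on the RefSeq gene map of TAIR10.1. All 9 passed the minimum mean of 1 FPKM over the 4 libraries. FPKM scales fragments by transcript length and by library size, so levels of different genes can be set side by side.

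Both groups were Col-0 seedlings, 5 d old, grown on agar in constant light at 22 °C. The tissue label is root tip, while the extraction text names roots. Wild type (WT) had 2 libraries, and so did the overexpressing line, labelled SCL28-OX #10. The overexpressing group is therefore 1 line, and the labels name no promoter for its SCL28 copy. They also do not say whether libraries of a genotype came from separate seedling cultures, so the p-values below speak of the spread among these libraries alone, and that spread may be technical.

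Cyclins are the activating subunits of cyclin-dependent kinases (CDKs). B-type cyclins accumulate as a cell passes through G2, drive entry into mitosis with CDKA and the plant-specific CDKB kinases, and are then marked for destruction by the anaphase-promoting complex (APC/C). Their genes are classical G2/M genes, transcribed under the control of MYB3R factors, which bind the mitosis-specific activator (MSA) element. In roots their transcripts mark the dividing cells of the meristem. SCL28 encodes a GRAS family transcription factor, and the comparison asks how cyclin transcripts stood when it was overexpressed.

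Upstream sequences are shown for the 3 members called lower in SCL28-OX and then for CYCB1;3, called higher. These share the MSA core without sharing a direction of change. The other members called higher, CYCB1;4 and CYCB3;1, had no core in the same window, and a relation of core to direction was not tested. Each sequence printed runs 5′ to 3′ on the strand of the gene over the 250 bases before the RefSeq gene start, with capitals for AACGG or its reverse complement. Sequences and starts are from RefSeq on TAIR10.1. In the order printed they lie at chr4:17624309-17624558, chr5:1861704-1861953, chr1:7137829-7138078 and chr3:3627274-3627523, all on the minus strand.
CYCB1;1: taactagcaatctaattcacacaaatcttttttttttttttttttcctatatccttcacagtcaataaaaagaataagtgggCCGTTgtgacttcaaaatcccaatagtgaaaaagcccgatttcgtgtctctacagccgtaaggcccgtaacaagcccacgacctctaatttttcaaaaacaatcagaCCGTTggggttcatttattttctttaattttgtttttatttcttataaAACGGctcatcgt
CYCB1;2: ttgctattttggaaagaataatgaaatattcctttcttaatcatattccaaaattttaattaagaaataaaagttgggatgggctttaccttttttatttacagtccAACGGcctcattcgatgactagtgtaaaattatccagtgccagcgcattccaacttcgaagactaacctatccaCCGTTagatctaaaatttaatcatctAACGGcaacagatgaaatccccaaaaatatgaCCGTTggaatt
CYCB2;3: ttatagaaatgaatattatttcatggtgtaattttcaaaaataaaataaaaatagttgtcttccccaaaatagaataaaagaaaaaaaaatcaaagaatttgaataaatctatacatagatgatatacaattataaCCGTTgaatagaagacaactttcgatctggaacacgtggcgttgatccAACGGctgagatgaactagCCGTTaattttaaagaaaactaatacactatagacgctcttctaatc
CYCB1;3: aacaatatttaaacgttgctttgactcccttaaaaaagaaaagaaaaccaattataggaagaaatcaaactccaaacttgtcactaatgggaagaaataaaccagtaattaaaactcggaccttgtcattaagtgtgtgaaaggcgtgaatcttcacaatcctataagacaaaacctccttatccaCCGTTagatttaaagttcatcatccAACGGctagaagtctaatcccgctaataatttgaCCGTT

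The AACGG core, searched on both strands, was found in the 250 bases before 6 of the 9 genes. It occurred 4 times before the second gene printed and 3 times before each of the other three genes printed and before CYCB2;1 and CYCB2;2. Of 27443 windows before protein-coding genes, 20.6% held at least 1 core and 0.736% held at least 3. In 4 of the 5 genes with 3 cores, the first gene printed being the exception, the cores stood in the same order of strands, opposite, same and opposite relative to the gene. A longer form of the element contains the core, preceded by a C and any base and followed by any 2 bases and an A. It was present before 4 of these 6 genes and in 1.68% of all windows. The remaining members, CYCB1;4, CYCB2;4 and CYCB3;1, had no core in this window. For them the start used matters, because the deposited interval begins 211, 395 and 70 bases downstream of the RefSeq start, in that order. Measured from the deposited start, a choice added after the data were seen, they had 4, 0 and 1 cores, so that 8 of 9 genes held the core. The shares over all windows were taken from RefSeq starts, and none was taken from deposited starts to set beside this count. A match describes letters in the window and was not tested as a binding site.

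**Figure D1:**
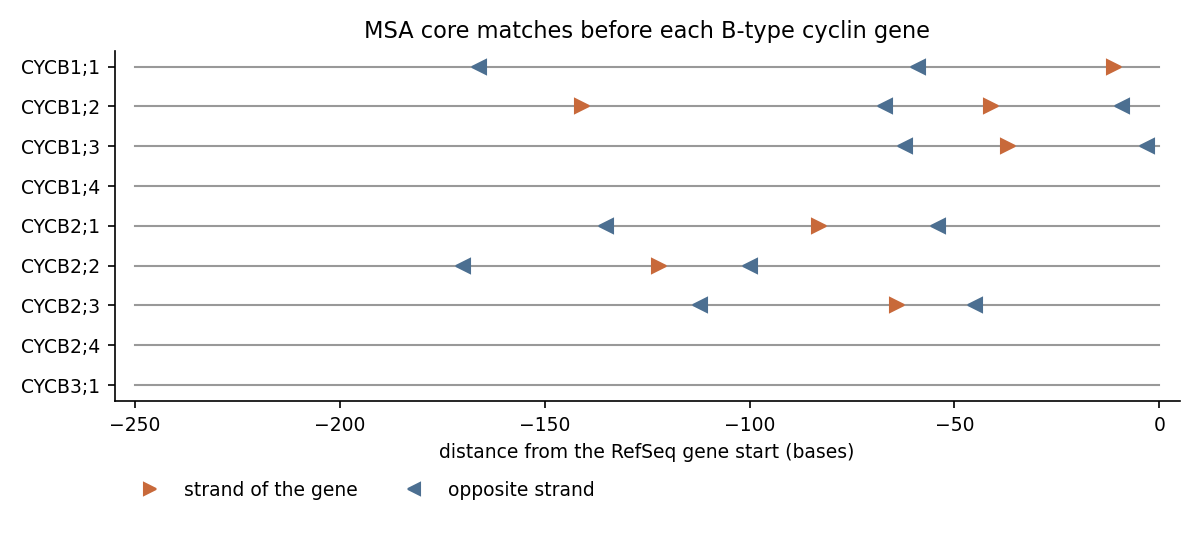
Positions of the AACGG core in the 250 bases before the RefSeq start of each B-type cyclin gene, with arrowheads pointing right on the strand of the gene and left on the opposite strand, against the distance from that start in bases. One gene shows 4 matches, 5 genes show 3 and 3 genes show none.

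SCL28 was at 6.78 and 7.57 FPKM in WT against 2378 and 2300.22 FPKM in SCL28-OX, on the side the labels give. Of 18087 genes tested on log2(FPKM + 1) with limma, 5911 were higher and 6112 lower in SCL28-OX at an adjusted p under 0.05. With each library scaled to the same summed FPKM, an alternative added after the data were seen, these counts were 8485 and 3727, and the median change of all genes shifted by 0.142 on the log2 scale. The change rose with transcript length (Spearman's rho 0.677 across 17801 genes, which are not independent replicates), so changes are also given after a correction for length. Steps of low FPKM values implied division by about 26100000 to 33100000 fragments a library. That is the depth only if FPKM was scaled by the plain library total, which was not tested. Of 8 meristem markers 3 were lower and 1 higher, and their summed level was 112.3 to 118.1 FPKM in WT and 105.7 to 106.4 in SCL28-OX. With the length correction 3 were again lower and 1 higher, where 25.9% of all genes were lower and 21.3% higher. With GC content corrected too, 4 were lower and none higher, where 23.9% of all genes were lower and 19.3% higher. With equal summed FPKM the balance turned, to 3 higher and 2 lower. The sums per 1000000 of summed FPKM then overlapped, at 118.0 to 124.8 in WT and 124.5 to 125.4 in SCL28-OX. Single genes weigh on such sums, as RGF3 held 38.7 and 40.7 FPKM in WT and 23.1 and 24.8 in SCL28-OX. SCR went the other way, from 18.8 and 20.4 to 27.9 and 28.1 FPKM. Of 4 root cap markers 2 were lower and 1 higher, with sums of 48.2 to 51.0 and 37.1 to 37.8 FPKM. Of 5 root hair markers 3 were higher and 2 lower, with sums of 257.0 to 257.9 and 290.1 to 290.7 FPKM. Within these sums LRX1 alone held 10.9 and 10.4 FPKM in WT and 40.0 and 39.7 in SCL28-OX. Of 4 xylem markers 2 were higher and none lower, with sums of 288.1 to 291.2 and 298.8 to 299.4 FPKM. Of 7 photosynthesis markers 5 were tested and 4 were higher, none lower, with sums of 118.6 to 122.5 and 175.9 to 177.2 FPKM. After the length correction 2 root cap markers were lower and 1 higher, while 1 root hair marker was lower and 3 were higher. Of the xylem and photosynthesis markers, 3 and 5 were then higher and none lower. No marker was at 0 in all 4 libraries. The part of these shifts in the cyclin values was not tested, and in bulk tissue fewer dividing cells and less RNA per cell cannot be told apart.

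The B-type cyclins changed little and in both directions. The ratio of SCL28-OX to WT mean FPKM ran from 0.802 to 1.18. At a limma adjusted p under 0.05, 3 of 9 were lower (CYCB1;1, CYCB1;2 and CYCB2;3), 3 were higher (CYCB1;3, CYCB1;4 and CYCB3;1) and the other 3, all CYCB2 genes, did not pass. Of all genes tested, 33.8% were called lower, 32.7% higher and 66.5% either way, so the members were called about as often as genes at large. Their median absolute log2 change was 0.16 in this uncorrected fit, against 0.25 over all genes. The members were not below genes at large once length was corrected. By absolute change the middle member was then CYCB2;4, at -0.18, against a median of 0.15 over all genes. With GC content corrected too it was CYCB1;4, at 0.14, against 0.14. Uncorrected, the signed median of the members was -0.08, against -0.01 over all genes. It turned to 0.07 with equal summed FPKM, where 3 members were higher and none lower. On that scaling 46.9% of all genes were higher and 20.6% lower, with a median of 0.13. The libraries of the groups did not overlap at 7 of 9 members, against 83.6% of all genes tested. The length correction left 3 lower and 1 higher, where 25.9% of genes were lower, 21.3% higher and 47.2% either. With length and GC content both corrected, 2 were lower and 1 higher, where 23.9% of genes were lower, 19.3% higher and 43.2% either. By the q-value in the authors' deposited table the 3 members called lower here, and no others, were below 0.05, where 61.3% of the genes tested were below it.

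**Figure D2:**
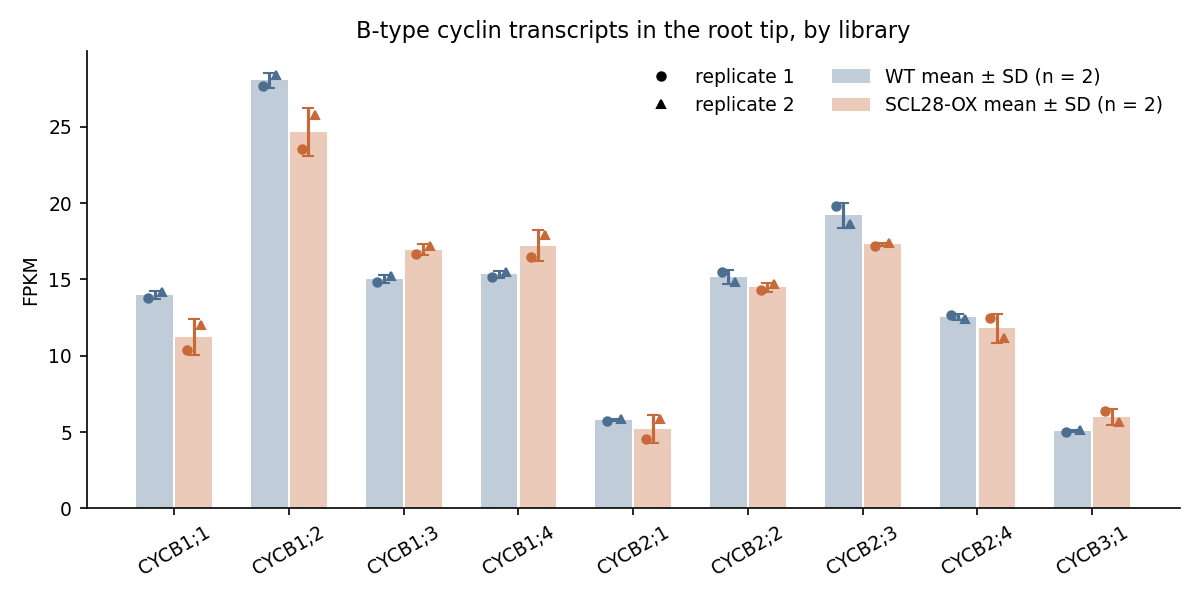
FPKM of each B-type cyclin (x axis) in WT and SCL28-OX, with bars for means of 2 libraries, error bars for SD and points for the libraries. One member stands above the rest in both genotypes, at 28.05 FPKM in WT and 24.64 in SCL28-OX, and the lowest pair lies between 5.08 and 6.01 FPKM.

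In WT the members spanned a 5.52-fold range of mean FPKM. CYCB1;2 led at 28.05, followed by CYCB2;3 at 19.20. Then came CYCB1;4, CYCB2;2 and CYCB1;3 between 15.03 and 15.33, whose libraries overlapped from each to the next. Below them were CYCB1;1 at 13.97, CYCB2;4 at 12.53, CYCB2;1 at 5.78 and CYCB3;1 at 5.08. Outside the middle group no neighbours in the WT order overlapped. In SCL28-OX the range was 4.74-fold and the same gene led. The next 3 places, at 17.29, 17.21 and 16.94 FPKM, overlapped from each to the next and were held by CYCB2;3 and the pair of higher CYCB1 genes. The fifth place, at 14.49 FPKM, overlapped neither neighbour. CYCB1;1 came next but one, at 11.21 FPKM, and overlapped the gene just above it at 11.81 FPKM, a gene it had stood above in WT. The lowest pair overlapped too.

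CYCB1;1 (AT4G37490, chromosome 4, 17621886 to 17624285 on TAIR10) is widely used as a reporter of G2/M cells and is also known to be induced by DNA damage. Its WT libraries held 13.8 and 14.1 FPKM, and its SCL28-OX libraries held 10.4 and 12.0. Both SCL28-OX libraries were below both WT libraries, replicate 1 the more so. The group means were 13.97 ± 0.255 and 11.21 ± 1.17 FPKM (SD, n = 2). The gene fell by 0.30 on the log2 scale (SE 0.07, limma adjusted p = 0.00697), and 58.7% of genes tested had a smaller absolute change. After the length correction it fell by 0.26 (limma adjusted p = 0.0184), and by 0.30 with GC content added (0.0110). It was called with each library left out in turn, at changes of -0.40 to -0.20. With equal summed FPKM it was not called (-0.15, limma adjusted p = 0.0965), and its adjusted p spanned 0.00124 to 0.0965 across the alternatives.

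CYCB1;2 (AT5G06150, chromosome 5, 1859279 to 1861649), the most abundant member, held 27.7 and 28.4 FPKM in WT, against 23.5 and 25.8 in SCL28-OX. The groups did not overlap. It fell by 0.18 on the log2 scale (SE 0.05, limma adjusted p = 0.0132) and by 0.19 after the length correction (0.0152). The call did not hold without WT replicate 2 (limma adjusted p = 0.0636), without SCL28-OX replicate 1 (0.0647, at a change of -0.12) and with equal summed FPKM (0.65, at a change of -0.03). Its adjusted p spanned 0.00333 to 0.65 across the alternatives. Of its 50-base words, 88.2% occurred in no other annotated gene. The others were shared with AT1G34460 (CYCB1;5), a near copy outside the 9 members, their range of ratios and their sums. That copy, named after its values were seen, held 0.0921 and 0.0552 FPKM in WT and 0.272 and 0.41 in SCL28-OX, under the minimum for testing.

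CYCB1;3 (AT3G11520, chromosome 3, 3625324 to 3627273) is the member nearest to the previous gene in sequence, at 76.0% identity over 1233 aligned coding bases, and it was called in the opposite direction. It held 14.8 and 15.2 FPKM in WT, against 16.7 and 17.2 in SCL28-OX. Both SCL28-OX libraries were above both WT libraries. It rose by 0.16 on the log2 scale (SE 0.05, limma adjusted p = 0.0154) and by 0.19 after the length correction (0.0115). Without WT replicate 1 (limma adjusted p = 0.0788), without SCL28-OX replicate 2 (0.0713) and with quantile normalization (0.0671) it was not called. Its adjusted p spanned 0.000594, with equal summed FPKM at a change of 0.31, to 0.0788. The authors' deposited table gives it a q-value of 0.16.

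CYCB1;4 (AT2G26760, chromosome 2, 11401329 to 11403427), a further mitotic cyclin of the first subgroup, held 15.2 and 15.5 FPKM in WT, against 16.5 and 17.9 in SCL28-OX. The groups did not overlap, and the SCL28-OX libraries lay farther apart than the WT libraries. It rose by 0.16 on the log2 scale (SE 0.05, limma adjusted p = 0.0334). After the length correction the change was 0.14 and was not called (limma adjusted p = 0.0686). The call was also lost without WT replicate 1 (limma adjusted p = 0.124), WT replicate 2 (0.0732) or SCL28-OX replicate 2 (0.186), where the change was 0.10. It did not hold with no filter (limma adjusted p = 0.056), quantile normalization (0.125, at a change of 0.10), eBayes without trend (0.0556) or length and GC content corrected (0.0652). Across the alternatives the adjusted p spanned 0.00141 to 0.186, and with equal summed FPKM the change was 0.31. The authors' deposited table gives it a q-value of 0.124.

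Ratios between these 4 genes within a library differed between the genotypes. A ratio within a library does not depend on how libraries were scaled, but those given here are not corrected for transcript length or GC content. CYCB1;1 relative to CYCB1;3 was 0.929 and 0.930 in WT, against 0.622 and 0.700 in SCL28-OX. Their transcripts have like lengths, of 1630 and 1656 bases. CYCB1;2 relative to the same gene was 1.87 in both WT libraries, against 1.41 and 1.5 in SCL28-OX. Relative to the remaining CYCB1 gene, CYCB1;1 was 0.909 and 0.913 in WT and 0.630 and 0.671 in SCL28-OX. For all 3 ratios the genotypes did not overlap. This follows from the values above and adds no support, because each ratio sets a gene lower in both SCL28-OX libraries over a gene higher in both. The transcripts of CYCB1;2 and CYCB1;4 are longer, at 1779 and 1825 bases. Within the close pairs of CYCB2 genes the ratios overlapped between the genotypes. CYCB2;3 relative to CYCB2;4 was 1.56 and 1.5 in WT, against 1.38 and 1.56 in SCL28-OX. CYCB2;1 relative to CYCB2;2 was 0.371 and 0.392 in WT, against 0.32 and 0.397 in SCL28-OX. All these ratios were chosen after the values were seen and were not tested.

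**Figure D3:**
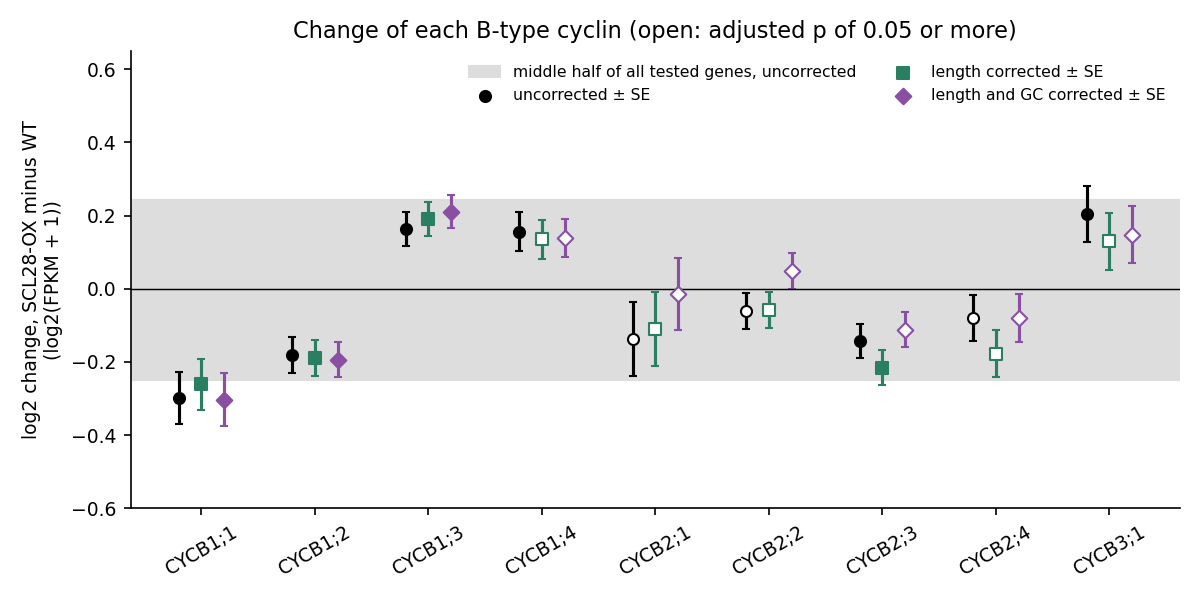
Log2 change of each B-type cyclin on log2(FPKM + 1), SCL28-OX minus WT, with SE bars, uncorrected, corrected for transcript length, and corrected for length and GC content. Filled points have a limma adjusted p under 0.05. The grey band spans the quartiles of all tested genes in the uncorrected fit only, -0.25 to 0.24. After the length correction these quartiles were -0.16 to 0.13, so the band does not apply to the corrected points. Of the members, 2 lie below 0 and 1 above 0 with filled points in all 3 fits.

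The CYCB2 genes encode mitotic cyclins of the second B subgroup and form close pairs. CYCB2;1 and CYCB2;2 share 82.7% of aligned coding bases, and the other pair shares 81.8%. CYCB2;3 (AT1G20610, chromosome 1, 7134790 to 7137781) held 19.8 and 18.6 FPKM in WT, against 17.2 and 17.4 in SCL28-OX, and the groups did not overlap. It fell by 0.14 on the log2 scale (SE 0.05, limma adjusted p = 0.0289) and by 0.22 after the length correction (0.00771). It was not called when WT replicate 1 (limma adjusted p = 0.178), SCL28-OX replicate 1 (0.0835) or SCL28-OX replicate 2 (0.0664) was left out, nor with length and GC content corrected (0.0951). With equal summed FPKM the change was 0.01 (limma adjusted p = 0.881), and its adjusted p spanned 0.00771 to 0.881 across the alternatives. Of its 50-base words, 82.7% occurred in no other gene, and the others were shared with AT1G20590, which was listed at 0 in all 4 libraries.

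CYCB2;4 (AT1G76310, chromosome 1, 28628046 to 28630394) held 12.7 and 12.4 FPKM in WT, against 12.5 and 11.1 in SCL28-OX. One SCL28-OX library lay between the WT libraries and the other below them. The log2 change of -0.08 did not pass (limma adjusted p = 0.29), with a 95% interval of -0.23 to 0.07. It was -0.16 without SCL28-OX replicate 1 (limma adjusted p = 0.0741) and -0.0054 without SCL28-OX replicate 2 (0.948). After the length correction it was -0.18 (limma adjusted p = 0.0525), with quantile normalization -0.15 (0.0748), and with equal summed FPKM it turned to 0.07 (0.375).

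CYCB2;1 (AT2G17620, chromosome 2, 7664103 to 7666522) held 5.74 and 5.83 FPKM in WT, against 4.57 and 5.84 in SCL28-OX. SCL28-OX replicate 1 alone was low, and replicate 2 was just above both WT libraries. The log2 change was -0.14 (95% interval -0.37 to 0.10, limma adjusted p = 0.267). Without SCL28-OX replicate 2 it was -0.28 and called (limma adjusted p = 0.0243), and without SCL28-OX replicate 1 it was 0.01 (0.913). It was -0.21 with quantile normalization (limma adjusted p = 0.106), -0.02 with length and GC content corrected (0.915) and -0.0014 with equal summed FPKM (0.991).

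CYCB2;2 (AT4G35620, chromosome 4, 16901621 to 16903920) held 15.5 and 14.9 FPKM in WT, against 14.3 and 14.7 in SCL28-OX. The groups did not overlap, but the gap between them was smaller than the spread within either. The log2 change of -0.06 did not pass (95% interval -0.18 to 0.05, limma adjusted p = 0.298). It was -0.03 without WT replicate 1 (limma adjusted p = 0.681) and -0.11 with quantile normalization (0.0779). The direction turned with length and GC content corrected (0.05, limma adjusted p = 0.452) and with equal summed FPKM (0.09, 0.141).

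CYCB3;1 (AT1G16330, chromosome 1, 5582387 to 5587391) is the only member of the third subgroup and has the longest coding sequence of the family, at 1947 bases. It held 5.02 and 5.14 FPKM in WT, against 6.38 and 5.65 in SCL28-OX. Both SCL28-OX libraries were above both WT libraries. It rose by 0.20 on the log2 scale (SE 0.08, limma adjusted p = 0.0471), close to the threshold. After the length correction the change was 0.13 and was not called (limma adjusted p = 0.205). The call was also lost without WT replicate 1 (limma adjusted p = 0.15), WT replicate 2 (0.104) or SCL28-OX replicate 1 (0.244), where the change was 0.13. It did not hold with no filter (limma adjusted p = 0.0815), quantile normalization (0.17, at a change of 0.13) or length and GC content corrected (0.163). With the replicate number as a block the adjusted p was 0.0566, and it spanned 0.0053, with equal summed FPKM at a change of 0.34, to 0.244. A pseudocount of 5 FPKM gave a change of 0.13 that was called (limma adjusted p = 0.0452). About 263 to 330 fragments stood behind each of its values, where counting alone gives a relative error of 5.5% to 6.17%. For the most abundant member about 1063 to 1480 fragments gave 2.6% to 3.07%.

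Summed over the family, cyclin B transcripts came to 130.2 and 130.1 FPKM in WT, against 122.0 and 127.6 in SCL28-OX. Both SCL28-OX sums were lower on this scale. Per 1000000 of the summed FPKM of each library the order turned, with 136.8 and 137.6 in WT and 143.8 and 150.2 in SCL28-OX. The CYCB1 genes held 54.9% and 56.3% of the family sum in WT, against 55.0% and 57.1% in SCL28-OX, and the groups overlapped. Within that share CYCB1;1 went from 10.6% and 10.9% to 8.51% and 9.43%, while CYCB1;3 went from 11.4% and 11.7% to 13.7% and 13.5%. Shares of 1 sum depend on each other and were not tested.

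In a list of CDK genes, CKS genes and the kinase gene WEE1, 6 of 8 were lower and none higher, with a median log2 change of -0.25. Beside this list and those below, 33.8% of all genes were lower and 32.7% higher. After the length correction these shares were 25.9% and 21.3%, and with GC content added 23.9% and 19.3%. With equal summed FPKM they were 20.6% and 46.9%. CKS2, a small CDK-binding subunit, had 94.9 and 97.7 FPKM in WT, against 65.3 and 65.7 in SCL28-OX, and fell by 0.55 (SE 0.03, limma adjusted p = 2.97e-06). CKS1, its close relative, fell by 0.46. CDKB2;2, a mitotic CDK, fell by 0.36. After the length correction 5 of the list were lower and none higher, around a median of -0.12, with CKS2 at -0.18 and CKS1 at -0.12. With GC content added 2 of 8 were lower, CKS2 (-0.13) and the mitotic CDK (-0.29), and CKS1 was at -0.06 and not called (limma adjusted p = 0.23). CDKB2;1 had a log2 change of -0.03 and was not called (limma adjusted p = 0.619). With equal summed FPKM 3 of the list were lower and 1, this gene, was higher (0.13, limma adjusted p = 0.0313).

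The A-type cyclins, which act from S phase into mitosis, were called in both directions. Of 10 genes 8 were tested, 3 were higher, 2 were lower and the median was -0.06. CYCA1;1 fell by 0.33 on the log2 scale and CYCA3;4 by 0.19, while CYCA2;2 rose by 0.31 and CYCA2;4 by 0.30. With the length correction the count became 2 higher and 1 lower, with GC content added 3 higher and 1 lower, and with equal summed FPKM 4 higher and 1 lower around a median of 0.08. Of the APC/C regulators, through which B-type cyclins are destroyed or spared, 3 of 7 were higher and none lower. CDC20.2 rose by 0.26 and CDC20.1 by 0.21, both coding for mitotic activators of the APC/C. The length correction left 2 of this list higher, CDC20.2 among them at 0.21, and CDC20.1 at 0.11 (limma adjusted p = 0.0528). With GC content added 1 of the list was higher.

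Of 5 MYB3R genes 4 were tested, 3 were higher and none was lower. MYB3R1 had mean levels of 5.49 FPKM in WT and 10.06 in SCL28-OX and rose by 0.77 (SE 0.06, limma adjusted p = 2.5e-05). MYB3R4, an activator of G2/M genes, rose by 0.43. The length correction left MYB3R1 at 0.31 as the only one called, with MYB3R4 at 0.01 (limma adjusted p = 0.892). In the list of mitosis and cytokinesis 9 of 16 genes were higher and 5 lower. POK2 (0.73) and POK1 (0.65), kinesins that place the division plane, rose most, and MAD2 (-0.43), a spindle checkpoint gene, and AUR3 (-0.33), an Aurora kinase gene, fell most. With the length correction no gene of this list was higher and 4 were lower, where 21.3% of all genes were higher and 25.9% lower. KNOLLE, AUR2 and MAD2 were called lower in both fits. HINKEL, a kinesin gene of cytokinesis, changed direction, from a called rise of 0.20 (limma adjusted p = 0.00752) to a called change of -0.20 (0.0116). KNOLLE and HINKEL were named after their values were seen. POK2 at -0.15, POK1 at -0.11 and AUR3 at -0.11 were not called after this correction. With equal summed FPKM 9 of the list were higher and 2 lower.

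**Figure D4:**
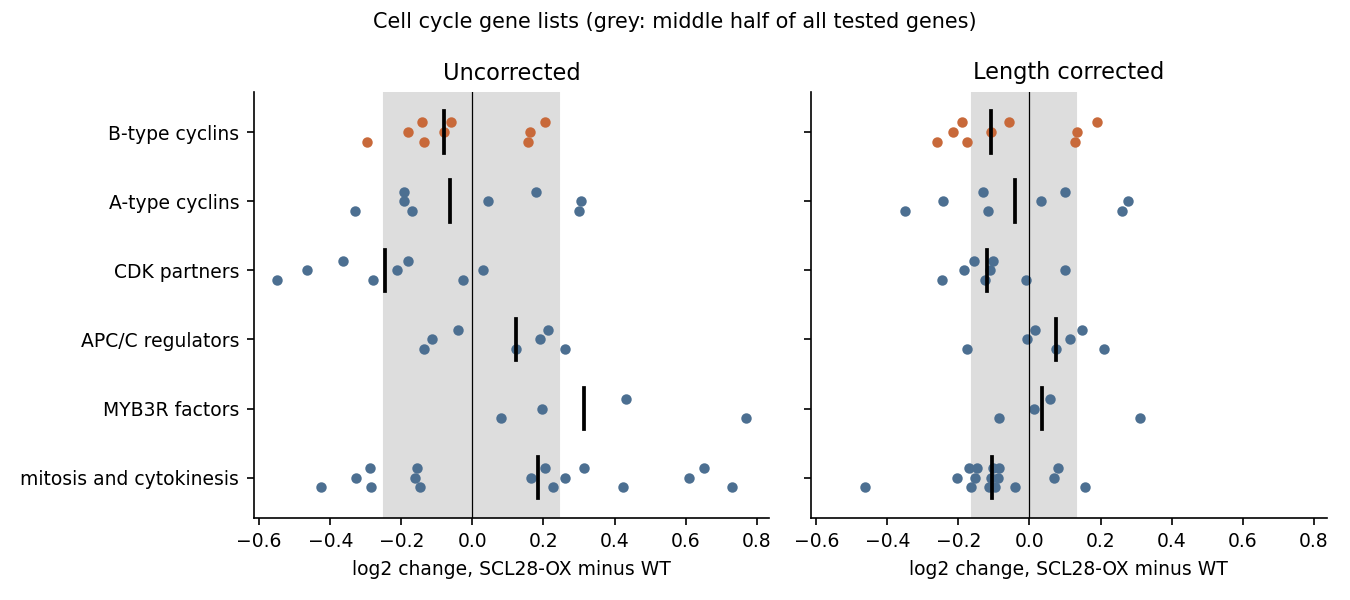
Log2 change, SCL28-OX minus WT, of every tested gene in the B-type cyclins and 5 other cell cycle lists, uncorrected (left) and corrected for transcript length (right), with black bars for list medians and a grey band for the quartiles of all tested genes. The B-type cyclins have medians of -0.08 and -0.11, and the mitosis and cytokinesis list goes from 0.18 to -0.11.

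Among 39 tested genes of the A-type cyclin, CDK, APC/C and mitosis lists, AUR2, an Aurora kinase gene, had the profile over the 4 libraries most like that of CYCB1;1 (the member with the largest absolute change), at a Euclidean distance of 0.070 on the centred log2(FPKM + 1) scale. CDKB2;2 (0.125) and AUR3 (0.132) came next. To the median profile of the 9 cyclins the nearest were CCS52A2 (0.043), an activator of the APC/C, CDKB2;1 (0.1) and UVI4 (0.101), an inhibitor of the APC/C. Profiles were not scaled, and the members moved both ways around a median of -0.08, so genes that changed little came nearest. These genes changed by -0.11, -0.03 and -0.14, and none was called in the uncorrected fit. With 4 libraries such distances describe these samples only. The MSA core stood before 12 of 16 genes of the mitosis list, 4 of 10 A-type cyclins, 3 of 5 MYB3R genes, 2 of 7 APC/C regulators and 2 of 8 genes of the CDK list, and before none of the 8 meristem markers, where 20.6% of all windows held it.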

How the data were processed

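TruSeq stranded mRNA libraries were made from root RNA, per the labels' protocols. The sources used here do not say if counting was strand-specific. Tools named in the submitters' processing notes are Cuffdiff 2.2.0, TopHat2 2.0.13 and CASAVA 1.8.2, and the build is TAIR10. The authors deposited FPKM per gene and library, and a comparison table with group means, a test score, p-values and q-values, per the file headers. The deposited score was not used, and deposited q-values are quoted as the authors'. The authors' means matched the library means within 0.0007%. Of 26883 lines, 60 had columns displaced by a blank inside a gene name and were dropped, and 1 more was not used here.

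FPKM are no counts, so log2(FPKM + 1) was tested with limma 3.58.1 in R 4.3.3 (lmFit, eBayes with trend, two-sided, Benjamini-Hochberg over the 18087 genes whose mean reached 1 FPKM, threshold 0.05). A change on this scale understates that of low genes. The length correction removed from each library a spline trend of its deviation from the mean of all 4 on the length of the annotated RefSeq transcript, and the second correction added GC content. The implied library totals rest on FPKM steps in single-transcript genes, where 92.9% to 94.2% of values from 1 to 15 fragments were whole within 0.1. Fragments per gene are approximate, and their errors cover counting only. Over such genes libraries of the same genotype were farther apart than counting noise (chi-square test, p = 0.00357 in WT and 0.000361 in SCL28-OX), and no pair looked like 1 library deposited in duplicate. This does not show that they are biological replicates. Members, lists and tests were chosen with earlier results of these data known. The rule for names took all members, SCL28, up to 2 called rises and 2 called falls per list, MYB3R1, MYB3R4, CDKB2;1 and the 3 nearest profiles. Markers are given as counts and sums, and RGF3, SCR and LRX1 were named after their values were seen. Alternatives were other pseudocounts, filters, scalings and eBayes settings, the replicate block, each library left out, the length and GC corrections, and leaving out joined or overlapping lines.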

Additional observations from a re-analysis of the deposited data

How the results depend on the processing

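Of the 9 cyclins, 3 were called lower and 3 higher. With single libraries left out in turn, the 6 called members kept their direction, but calls were lost and the set called changed. Changes ran from -0.40 to -0.20 for CYCB1;1, -0.24 to -0.12 for CYCB1;2 and -0.18 to -0.10 for CYCB2;3. They ran from 0.14 to 0.18 for CYCB1;3, 0.10 to 0.21 for CYCB1;4 and 0.13 to 0.28 for CYCB3;1. Higher calls were 1 with no filter and 0 with quantile normalization, where 5855 of 22451 and 5670 of 18087 genes were higher. They were 1 with the transcript length correction and 1 with the length and GC correction, where 21.3% and 19.3% of genes were higher. Lower calls were 0 with equal summed FPKM, which was added after the data were seen, where 20.6% of genes were lower. With the replicate block, 3 were lower and 2 higher, as the call for CYCB3;1 was lost. On that fit 6161 of 18087 genes were lower and 5793 higher. Equal replicate numbers are not stated to pair libraries, and over 18087 genes the difference between replicates 1 and 2 correlated at 0.122 between genotypes. CYCB2;1 turned to 0.0119 without SCL28-OX replicate 1, and was -0.2848 without replicate 2. CYCB2;2 turned to 0.0485 with the length and GC correction. With equal summed FPKM it was 0.0886, CYCB2;3 was 0.0086 and CYCB2;4 was 0.0671. The cause was not tested. The calls of the 6 called members held in 9 to 16 of 17 alternatives, most often for CYCB1;1. The alternatives are not independent, and several could hardly move a call. Median-ratio scaling used factors of 0.9976 to 1.002, and robust eBayes and a minimum mean of 5 FPKM left the changes themselves as they were. With an MSA core upstream there were 6 members, and 8 from the deposited start, for which no share over all genes was taken. Over all genes, 5911 were higher, against 3792 with the length correction and 3434 with GC content added, and 6112 were lower, against 3727 with equal summed FPKM. Leaving out 1 library assumes that the lone sample varies like the other group.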
